A study of Mus musculus with 11 samples.

Results

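The genes described are 9 that mark T cells: Cd3d, Cd3e, Cd3g and Cd247, which encode the signalling chains of the T cell receptor complex, Cd4 and Cd8a for its co-receptors, Lck and Zap70 for its proximal kinases, and Il7r for a receptor chain that keeps T cells alive. They were taken as a named list from 22196 genes with estimated read counts, and were not picked by a threshold on their values. The list was chosen with earlier results of these data known. All 9 were measured. The data are RNA-seq profiles of whole inguinal mammary glands of mice, from 6 knockout libraries (Tsc1-fl/fl; Adipoq-Cre-Tg/+) and 5 wild-type libraries (Tsc1-fl/fl; Adipoq-Cre-+/+). Floxed Tsc1 was thus common to both groups, and Cre recombinase, under the fat cell promoter Adipoq, was particular to the knockout mice. Glands were collected 16 days after delivery (age label PND16.5) from animals given milk and normal chow. The contrast concerns the loss, in fat cells, of Tsc1, a restraint on the growth kinase complex mTORC1. No batch, litter or date is labelled, nor whether each library came from a separate animal, so that p-values measure the spread between these libraries.

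A T cell recognises antigen with a receptor whose antigen-binding chains have almost no cytoplasmic part. Signalling depends on the associated CD3 gamma, delta, epsilon and zeta chains, whose tyrosine motifs are phosphorylated by Lck, a membrane kinase that the co-receptors CD4 and CD8 bind and bring to the receptor. Zap70 binds the phosphorylated motifs and passes the signal on through the adaptor Lat. The interleukin 7 receptor is highest on resting T cells and is also found on innate lymphoid cells. In the mammary gland T cells are a minor population beside the epithelium, and the inguinal gland encloses a lymph node that is rich in T and B cells.

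Since the CD3 genes and Lck varied together over the libraries, as described below, the 250 bases before the RefSeq start of these genes are shown (GRCm38.p6, each written 5′ to 3′ on the strand of the gene). Capitals mark exact matches, on either strand, to 6 short motifs that were searched. These were TGTGGT for the RUNX factors, CAGGTG for the E proteins and CAGGAAG for the ETS family. Further letters searched were AGATAA for the GATA factors, CTTTGAT for the TCF and LEF factors and TATAAA for the TATA box, and no match of 1 motif was barred from overlapping another. Cd3g and Cd3d are divergent neighbours whose annotated starts lie 1355 bases apart, and the 3 CD3 genes together span 40056 bases of chromosome 9. The windows are chr9:44980432-44980681 (minus strand) for Cd3g, chr9:44981536-44981785 (plus strand) for Cd3d, chr9:45009612-45009861 (minus strand) for Cd3e and chr4:129573642-129573891 (minus strand) for the upstream of the 2 starts of Lck.
Cd3g: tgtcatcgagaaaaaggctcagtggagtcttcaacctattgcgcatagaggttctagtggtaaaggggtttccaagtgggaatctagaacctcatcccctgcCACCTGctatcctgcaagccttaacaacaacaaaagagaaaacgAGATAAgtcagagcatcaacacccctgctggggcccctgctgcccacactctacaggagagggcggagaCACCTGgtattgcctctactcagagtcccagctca
Cd3d: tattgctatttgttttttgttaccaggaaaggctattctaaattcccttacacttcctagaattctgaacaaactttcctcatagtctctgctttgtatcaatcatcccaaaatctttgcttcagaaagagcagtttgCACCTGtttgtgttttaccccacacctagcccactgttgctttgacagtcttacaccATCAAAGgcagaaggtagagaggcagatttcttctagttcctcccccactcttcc
Cd3e: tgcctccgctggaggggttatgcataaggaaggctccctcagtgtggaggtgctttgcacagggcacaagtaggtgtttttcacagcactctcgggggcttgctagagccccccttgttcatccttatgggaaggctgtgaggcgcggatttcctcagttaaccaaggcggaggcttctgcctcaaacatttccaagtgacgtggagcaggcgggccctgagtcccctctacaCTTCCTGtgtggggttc
Lck: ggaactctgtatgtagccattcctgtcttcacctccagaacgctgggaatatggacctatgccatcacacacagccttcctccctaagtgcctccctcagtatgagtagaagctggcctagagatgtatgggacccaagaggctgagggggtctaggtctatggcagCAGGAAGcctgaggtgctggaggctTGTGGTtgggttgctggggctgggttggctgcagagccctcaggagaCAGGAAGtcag
The table of promoters held 11 windows for 8 of the 9 genes, all but Cd4. The E protein letters were found in 6 of the 11 windows and in 17.2% of 32851 windows of all genes, and the ETS letters in 6 of 11 against 10.8%. The RUNX letters were in 2 windows (14% of all), GATA in 1 (9.99%), TCF and LEF in 1 (3.21%) and TATA in 0 (12.4%). A match is a description of the letters and not evidence that a factor binds there.

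Depth lay between 25817975 and 37894237 estimated reads per library. CPM below are reads scaled by library size after TMM normalisation. Tsc1 averaged 10.1 ± 1.33 CPM in the 6 knockout libraries and 10.7 ± 1.11 CPM in the 5 wild-type ones (SD), a difference that did not pass the test (log2 ratio -0.09 ± 0.11, SE, adjusted p of 0.772 in edgeR), and a whole gland also holds transcripts of cells without Cre. The defining genes of the labelled tissue were present in every library, with Csn1s1, a casein, at 206200 CPM in wild-type and 174900 CPM in knockout libraries on average, and all 8 milk epithelium genes and all 8 adipocyte genes were read in every library. The 25 combinations of libraries within a genotype differed by a chi-square per degree of freedom of 20.8 to 88.5, so that none was the same library sequenced again. This measure cannot tell separate animals from separate libraries of 1 animal. The libraries Knockout 1, Wild-Type 2, Wild-Type 4 and Wild-Type 5 stood apart from the other 7 in lymphocyte transcripts. The differences of those of the 9 genes that were tested, and of the main genes that varied with them, are therefore also given with single libraries left out.

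T cell receptor and lineage transcripts were low in all glands, and libraries of the same genotype differed widely. Summed over the 9 genes, wild-type libraries 1 to 5 held 2.63, 22.3, 2.80, 11.6 and 36.6 CPM, and knockout libraries 1 to 6 held 10.9, 2.46, 4.72, 4.33, 4.04 and 2.90 CPM. Wild-Type 1 and Wild-Type 3 thus lay among the knockout libraries, and Knockout 1 lay close to Wild-Type 4. Wild types averaged 15.2 ± 14.4 CPM (SD, n = 5) and knockouts 4.89 ± 3.07 CPM (SD, n = 6). In whole tissue, the number of T cells, the RNA per T cell and the share of the enclosed lymph node in a sample cannot be told apart. Of the 9 genes, 0 passed the test between genotypes.

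**Figure D1:**
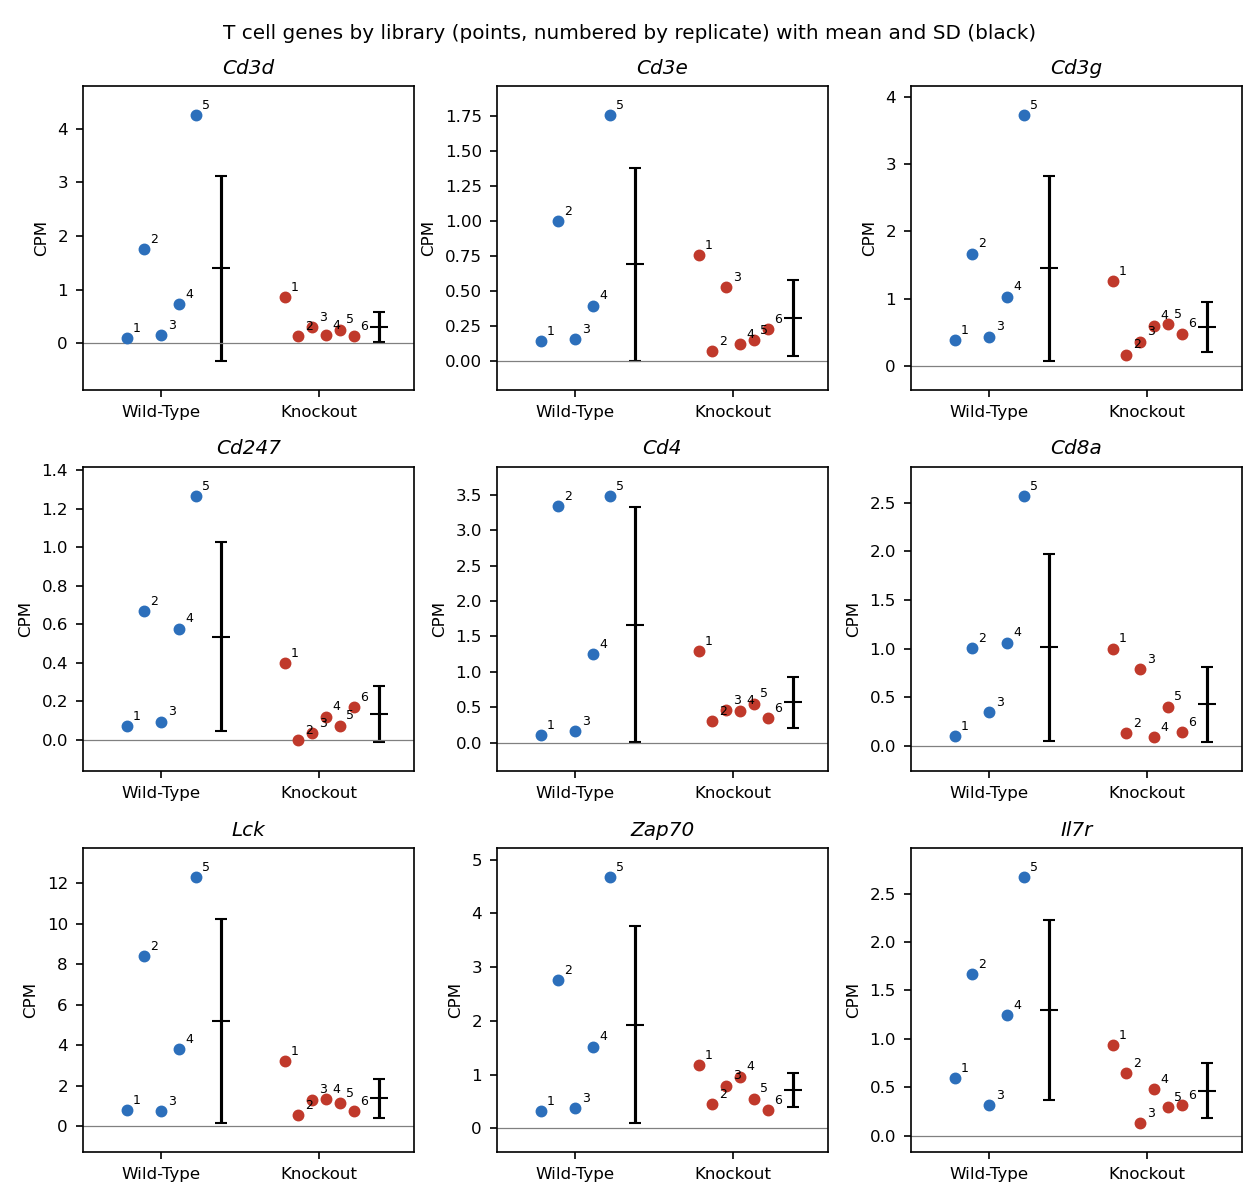
CPM (vertical axis) of each of the 9 genes in the 5 wild-type (blue) and 6 knockout (red) libraries, numbered by replicate, with group mean and SD in black. Wild-Type 5 is the highest library in all 9 panels, Knockout 1 is the highest knockout library in all 9, and Wild-Type 1 and Wild-Type 3 overlap with the knockout libraries.

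Cd3d, Cd3e and Cd3g encode the delta, epsilon and gamma chains, which form the dimers that carry the antigen-binding chains to the surface. Cd3g (ENSMUSG00000002033, chromosome 9, 44969572 to 44980431) was at 0.385, 1.67, 0.440, 1.03 and 3.72 CPM in wild-type libraries 1 to 5, and in knockout libraries its lowest, median and highest values were 0.171, 0.543 and 1.27 CPM. Cd3d (ENSMUSG00000032094, chromosome 9, 44981786 to 44987339) was at 0.105, 1.75, 0.157, 0.729 and 4.25 CPM in wild-type libraries and at 0.136, 0.204 and 0.866 CPM (lowest, median, highest) in knockout libraries. For both genes the groups overlapped, since Wild-Type 1 and Wild-Type 3 were as low as most knockout libraries. Cd3d had the widest range of the CD3 genes, from 3 to 121 reads.

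Cd3e (ENSMUSG00000032093, chromosome 9, 44998740 to 45009627) was at 0.140, 1.00, 0.157, 0.395 and 1.76 CPM in wild-type libraries, against 0.0682, 0.187 and 0.755 CPM in knockout libraries (lowest, median, highest). Knockout 3, at 0.529 CPM, lay above Wild-Type 4, which made Cd3e the only member with another set of 4 highest libraries than the rest. Cd247 (ENSMUSG00000005763, chromosome 1, 165788681 to 165877277), the gene of the zeta chain with several tyrosine motifs, was at 0.0700, 0.668, 0.0942, 0.577 and 1.26 CPM in wild-type libraries. Its knockout values were 0, 0.0969 and 0.400 CPM (lowest, median, highest), and Knockout 2 had 0 reads, which allows up to 0.102 CPM (3 counts, counting error only). Of its reads 92.4% were assigned to the transcript Cd247-201, and 3.47% of its coding words of 31 bases also occur in the overlapping gene Gm16565. Cd3d and Cd247 did not reach the minimum of reads for the test.

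The co-receptors separate the helper from the cytotoxic lineage, CD4 binding to class II and CD8 to class I molecules of the major histocompatibility complex. Cd4 (ENSMUSG00000023274, chromosome 6, 124864692 to 124888221) was at 0.105, 3.34, 0.157, 1.25 and 3.48 CPM in wild-type libraries 1 to 5, and at 0.307, 0.457 and 1.29 CPM (lowest, median, highest) in knockout libraries. Every knockout library lay between the 2 low and the 3 high wild-type libraries except Knockout 1, which was just above Wild-Type 4. Cd8a (ENSMUSG00000053977, chromosome 6, 71373427 to 71379173) was at 0.105, 1.00, 0.346, 1.06 and 2.56 CPM in wild-type libraries, against 0.0902, 0.273 and 0.999 CPM in knockout libraries. Knockout 3 had 0.793 CPM of Cd8a, near the level of Knockout 1, although its Cd4 was at 0.462 CPM. The groups overlapped in both genes.

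Both co-receptors come from the same library, so that their ratio does not depend on depth or scaling. A ratio of reads does depend on length, listed as 1374 bases for Cd4-201 and 744 bases for Cd8a-201. Shares of reads therefore do not show which gene had more transcripts. Per length, as TPM, the ratio of Cd4 to Cd8a had a median of 0.531 over the 11 libraries. By that measure Cd4 was the higher of the 2 genes only in Wild-Type 2 (ratio 1.23) and Knockout 4 (1.70). Cd4 made up 56.3% of the reads of Cd4 and Cd8a together in Knockout 1 (exact 95% binomial interval 46.2 to 66.1), 76.9% in Wild-Type 2 (67.6 to 84.6), 53.9% in Wild-Type 4 (42.1 to 65.5) and 57.6% in Wild-Type 5 (49.8 to 65.0), the 4 libraries with 76 or more reads of these 2 genes. In the other 7 libraries it ran from 31.3% to 83.3% on 6 to 38 reads. Knockout 4, at 83.3% (58.6 to 96.4), and Knockout 3, at 36.8% (21.8 to 54.0), were the only knockout libraries whose intervals did not overlap. Among the libraries with more reads, the interval of Wild-Type 2 lay above those of Wild-Type 4, Wild-Type 5 and Knockout 1, and it also lay above those of Wild-Type 3 and Knockout 3. These intervals cover counting error only. The lowest, median and highest shares were 36.8%, 63.5% and 83.3% in knockout and 31.3%, 53.9% and 76.9% in wild-type libraries, so that the groups overlapped.

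Of all Cd8a reads 75.3% were assigned to Cd8a-201 and 24.7% to Cd8a-202, whose coding sequence ends soon after the transmembrane part. The sequences part after 662 coding bases, and the stretch that only Cd8a-201 holds is shown in capitals after its preceding 20 bases, because it is the part by which reads can be assigned.
Cd8a-201: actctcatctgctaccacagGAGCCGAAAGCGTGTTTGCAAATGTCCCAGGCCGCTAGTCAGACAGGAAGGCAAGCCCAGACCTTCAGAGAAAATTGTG
Knockout 3 was the library with the most reads on Cd8a-202, 19.9 of 24, and Knockout 1 and Wild-Type 4 had 0 of 45 and 0 of 35. With so few reads over 79 bases, the assignment was not compared between genotypes.

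Lck and Zap70 are the kinases that start signalling. Lck (ENSMUSG00000000409, chromosome 4, 129548344 to 129573641) was the member with the most reads, 16 to 350 per library. It was at 0.805, 8.39, 0.754, 3.80 and 12.3 CPM in wild-type libraries 1 to 5 and at 0.546, 1.23 and 3.22 CPM (lowest, median, highest) in knockout libraries. Knockout 2 and Knockout 6 lay below every wild-type library, and no knockout library reached the wild-type median. Zap70 (ENSMUSG00000026117, chromosome 1, 36761798 to 36782818) was at 0.315, 2.76, 0.377, 1.52 and 4.67 CPM in wild-type libraries, and at 0.341, 0.672 and 1.18 CPM in knockout libraries. Here all 6 knockout libraries lay within the wild-type range, between the low pair and the high trio of wild-type libraries except Knockout 6, which was below Wild-Type 3.

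All Lck reads of a library were assigned to a single transcript, Lck-201 in Wild-Type 1, Knockout 2 and Knockout 4 and Lck-208 in the other 8 libraries. The coding sequences are identical apart from 33 bases that Lck-208 holds after coding base 5, shown in capitals with the bases around them.
Lck-208: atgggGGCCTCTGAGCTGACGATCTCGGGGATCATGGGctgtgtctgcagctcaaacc
How many reads covered this stretch was not tested, and only the sum over the gene is used here.

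Il7r (ENSMUSG00000003882, chromosome 15, 9505788 to 9530176) was the member least like the others. It was at 0.595, 1.67, 0.314, 1.25 and 2.67 CPM in wild-type libraries 1 to 5 and at 0.132, 0.397 and 0.933 CPM (lowest, median, highest) in knockout libraries. All 6 knockout libraries lay below the wild-type median, and 3 lay below every wild-type library. Its reads were 26.4% of those of the 9 genes in Knockout 2 and 22.7% in Wild-Type 1, where the other members were lowest, and 2.80% in Knockout 3, against a median of 10.7% over the 11 libraries.

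The test between genotypes was edgeR's quasi-likelihood F test over 12716 genes with Benjamini-Hochberg adjustment. It called 7 genes, or 0.055% of those tested (0.0472% higher and 0.00786% lower in knockout), and 0 of the 7 members that were tested. At an unadjusted p under 0.05 there were 3 of 7 members, Il7r, Lck and Zap70, all lower in knockout, against 12.4% of all genes (6.31% higher and 6.08% lower). On the log2 scale (knockout against wild type) Il7r differed by -1.43 ± 0.54, Lck by -1.88 ± 0.74 and Zap70 by -1.41 ± 0.63 (SE), at adjusted p-values in edgeR of 0.341, 0.357 and 0.395. The values of Cd4, Cd3g, Cd8a and Cd3e were -1.51 ± 0.78, -1.27 ± 0.60, -1.21 ± 0.75 and -1.09 ± 0.73 (log2, SE), with edgeR adjusted p-values of 0.459, 0.420, 0.534 and 0.568. The groups of 0 of the 7 members were free of overlap, against 1.32% of all genes tested.

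A low-count filter decides which members are tested, so that the 7 are not the whole list. Without it, 0 of 9 members passed, where 0.04% of 17497 genes did, and 5 of 9 had an unadjusted p under 0.05, against 10.8%. In that fit Cd3d differed by -2.11 ± 0.88 and Cd247 by -1.88 ± 0.81 (log2, SE), at adjusted p-values in edgeR of 0.431 and 0.432. The median over the 9 was -1.44, and that over the 7 in the filtered fit -1.41, beside -0.01 over all genes tested. DESeq2 called 0 of 9 members, where it called 0.837% of 17447 genes, and 7 of 9 had an unadjusted p under 0.05 there (10.7% of all genes). In limma-voom 0 of 7 were called, where 0.0472% of all genes were, and 0 had an unadjusted p under 0.05, against 11.5%. The differences were smaller there, with a median of -0.91, Lck at -1.20 ± 0.82 and Cd4 at -0.48 ± 0.89 (log2, SE). The authors' deposited normalized values gave log2 ratios of group means from -1.15 for Cd3e to -2.17 for Cd3d, close to the ratios of CPM, which ran from -1.16 to -2.18 for the same genes.

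**Figure D2:**
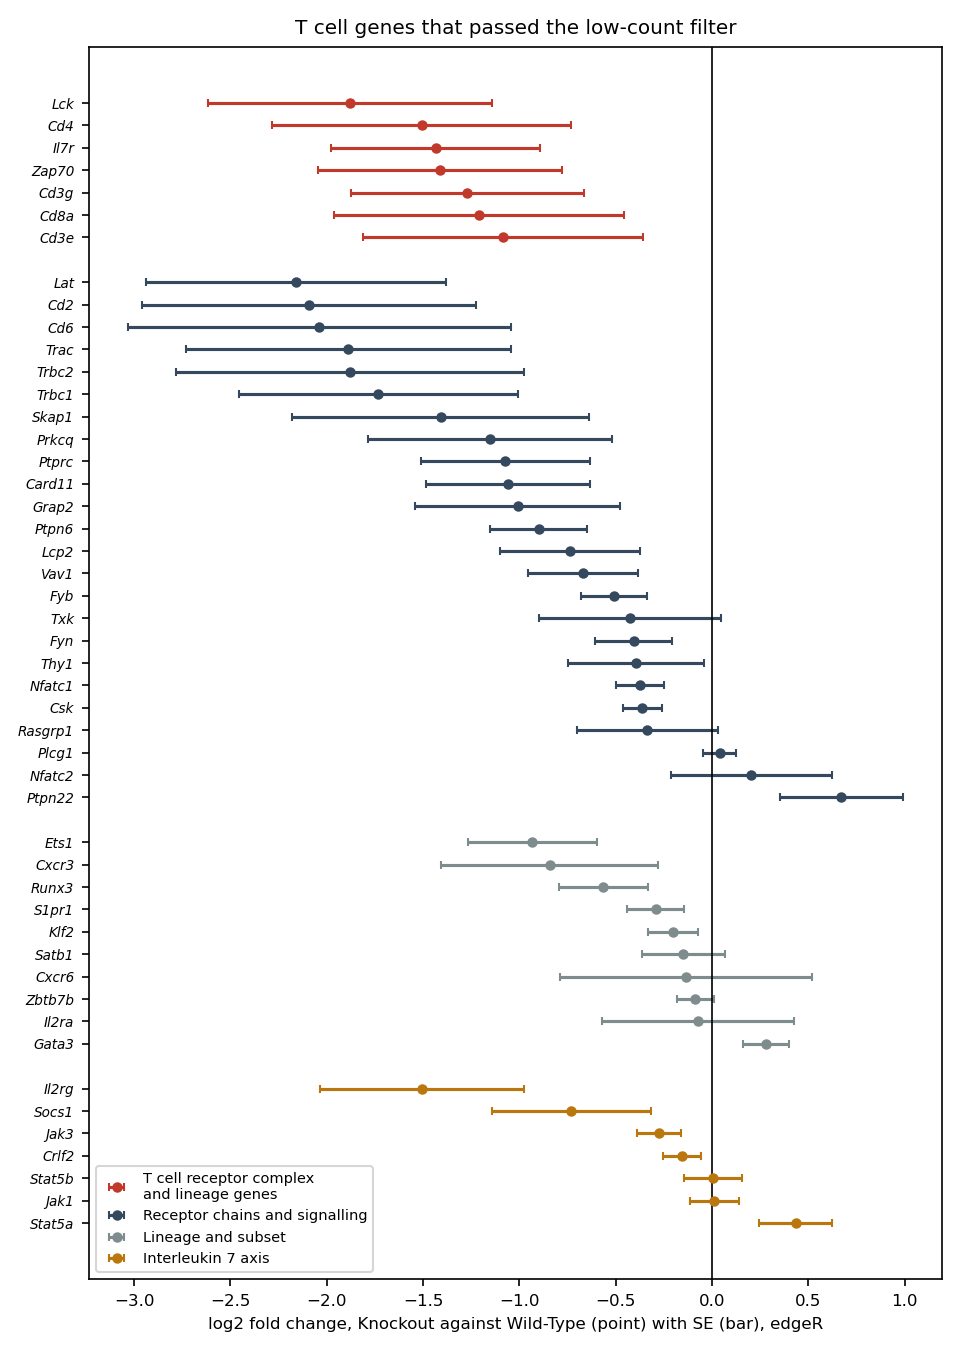
The edgeR log2 fold change (horizontal axis) of T cell genes that passed the low-count filter, with SE as bars, grouped by list. The 7 members lie between -1.88 and -1.09, the T cell receptor chains and Lat lie in or below that range, and Plcg1 and Jak1 lie near 0.

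The size of the difference depended on single libraries as well as on the model. Without Wild-Type 5 the log2 fold changes of the 7 members lay between -1.28 (Lck) and -0.37 (Cd3e), 0 had an unadjusted p under 0.05 (11% of all genes in that fit), and their median was -0.77. Without Knockout 1 the 6 members tested had a median of -1.73 and 5 had an unadjusted p under 0.05, against 9.97% of all genes. Called at the adjusted threshold were 0 members in both fits, where 0.101% and 0.0159% of all genes were. With any single library left out 0 members passed the adjusted threshold, and each tested member had a lower mean in knockout libraries. Cd3d and Cd247 did not reach the filter in the fits without Wild-Type 5 or Knockout 1. Without Wild-Type 5 their wild-type means fell from 2.11 to 1.04 TPM and from 0.930 to 0.627 TPM. Without Knockout 1 their knockout means fell from 0.573 to 0.323 TPM and from 0.270 to 0.145 TPM. Without Knockout 1 the sum over the 9 genes averaged 3.69 ± 0.967 CPM (SD, n = 5) in knockout libraries. The wild-type mean of that sum in turn rests in large part on Wild-Type 5, at 36.6 CPM against 2.63 to 22.3 CPM in the other wild-type libraries.

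**Figure D3:**
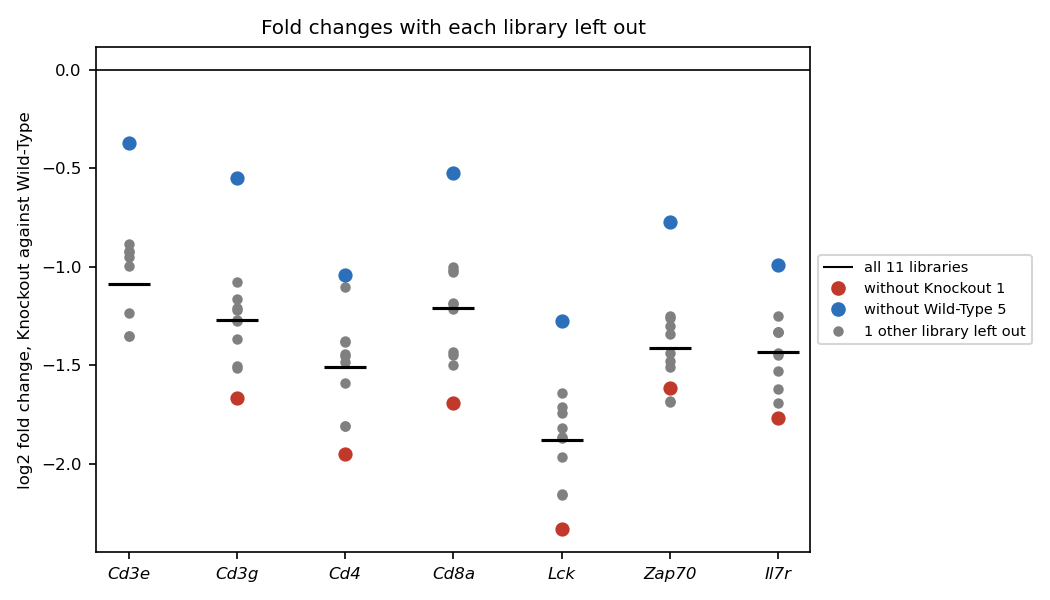
The log2 fold change (vertical axis) of the 7 tested members with all 11 libraries (black bars) and with each library left out in turn (points). Points without Wild-Type 5 (blue) lie nearest 0 for every gene, from -1.28 to -0.37, and those without Knockout 1 (red) lie below the black bars. Cd3e has no point without Knockout 1 or Knockout 3 because it did not pass the low-count filter in those fits.

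Levels of different genes were compared per length, as TPM. Cd3g had the highest mean over the 11 libraries, 1.46 TPM, and ranked highest of the 9 in 8 libraries. It was followed by Cd3d at 1.27 TPM, Lck at 0.849 TPM, Cd3e at 0.638 TPM, Cd8a at 0.590 TPM and Cd247 at 0.570 TPM. Cd4, Il7r and Zap70 were lowest, at 0.345, 0.302 and 0.267 TPM. The order of neighbours held in 9 of 11 libraries for Cd3g over Cd3d and for Cd3d over Lck, and in 8 for Cd247 over Cd4. Lck and Cd3e (7 of 11), Cd3e and Cd8a (6 of 11), Cd8a and Cd247 (5 of 11), Cd4 and Il7r (5 of 11) and Il7r and Zap70 (7 of 11) changed places between libraries, so that their order is uncertain. The order of the group means was not the same in both genotypes. In wild types Cd3d, at 2.11 TPM, was above Cd3g, but without Wild-Type 5 it was below, at 1.04 against 1.22 TPM. In wild types Cd247, at 0.930 TPM, above Cd3e at 0.850 TPM and Cd8a at 0.798 TPM, also without Wild-Type 5 (0.627, 0.521 and 0.505 TPM), while in knockouts Cd3e, at 0.462 TPM, was above Lck at 0.433 TPM, also without Knockout 1 (0.290 and 0.283 TPM). Wild types averaged 2.07 ± 2.03 TPM of Cd3g and 0.389 ± 0.370 TPM of Zap70 (SD, n = 5), and knockouts 0.959 ± 0.755 TPM and 0.166 ± 0.0942 TPM (SD, n = 6).

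The members moved together over the 11 libraries. Pearson correlations of log2 CPM between the 7 tested members had a median of 0.858 over 21 combinations, from 0.551 for Cd8a and Il7r to 0.972 for Lck and Zap70. Lck had the highest mean correlation with the other 6, 0.906, and Il7r the lowest, 0.712. The 4 libraries with the highest CPM were Knockout 1 and Wild-Type 2, 4 and 5 in 8 of the 9 genes, all but Cd3e, and Wild-Type 5 was the highest in all 9. These correlations share the libraries and their scaling, and are given without a test. The mean profile of the members correlated at -0.215 with depth and at 0.0841 with the scaling factor of the library. The biological coefficient of variation within genotypes was 60.2% to 85.9% for the 7 tested members, with a median of 79.7%, against a median of 17.7% over all genes tested and of 24.9% over the 3531 genes at a mean CPM within the members' range.

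Other genes of the T cell receptor and of its signalling were taken from a list of 34, of which 24 were tested and 0 called in edgeR. Of the 24, 21 had a lower and 3 a higher mean in knockout, 11 had an unadjusted p under 0.05, all lower (6.08% of all genes were lower at that level), and the median log2 fold change was -0.82. The antigen-binding chains resembled the members. Trac, the alpha chain constant gene, differed by -1.89 ± 0.84 (log2, SE, adjusted p of 0.397 in edgeR), and the beta chain constant genes Trbc1 and Trbc2 had -1.73 ± 0.72 and -1.88 ± 0.90 (adjusted p = 0.372 and 0.431), although 64.5% and 65.8% of the coding words of Trbc1 and Trbc2 occur in the other copy, so that reads may be split wrongly between them. Trdc, which marks gamma delta T cells, had 0 to 9 reads per library and was not tested. Lat, the adaptor phosphorylated by Zap70, was at -2.16 ± 0.78 (adjusted p = 0.334). Without Wild-Type 5 the differences of Trac, Trbc1, Trbc2 and Lat were -1.10, -0.93, -0.92 and -1.41 (log2), and without Knockout 1 they were -2.25, -1.98, -2.41 and -2.56.

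The smallest p and the highest levels of the list belonged to 4 genes that are not limited to T cells, and these differed among themselves. Csk, the kinase that restrains Lck, had the smallest p of the list, averaging 27.7 ± 2.16 CPM in knockouts (SD, n = 6) against 35.6 ± 5.72 CPM in wild types (SD, n = 5), a log2 ratio of -0.36 ± 0.10 (SE, adjusted p of 0.263 in edgeR), and its groups did not overlap, as in 1 of the 24 tested genes of the list and 1.32% of all genes tested. Ptprc, which encodes the phosphatase CD45 of all white blood cells, averaged 9.51 ± 4.12 CPM and 20.1 ± 14.5 CPM (log2 fold change -1.07 ± 0.44, adjusted p = 0.368, and -0.58 without Wild-Type 5). Plcg1, a phospholipase of many receptors, was at 0.04 ± 0.09, and Ptpn22, a phosphatase, at 0.67 ± 0.32 (adjusted p = 0.885 and 0.425). DESeq2 called 2 of the 68 other T cell genes, both lower in knockout, Ptpn6 (log2 fold change -0.90 ± 0.25 SE, DESeq2 adjusted p = 0.0347) and Ccr6 (-3.15 ± 0.90, adjusted p = 0.0483), where it called 0.338% of all genes lower. Ptpn6 had an edgeR adjusted p of 0.269 and Ccr6 did not reach the edgeR filter. Ptpn6, a phosphatase found across blood cells, and Ccr6, a chemokine receptor also of B cells, were named after their values were seen.

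Among 24 lineage and subset genes 11 were tested, 0 were called, 10 had a lower and 1 a higher mean in knockout, and the median log2 fold change was -0.15. Ets1, a transcription factor of lymphocytes, was at -0.93 ± 0.33 (SE, edgeR adjusted p = 0.320). Among the most abundant were Zbtb7b, Gata3 and Klf2, at -0.09 ± 0.10, 0.28 ± 0.12 and -0.20 ± 0.13, which epithelial or endothelial cells also express (adjusted p = 0.746, 0.368 and 0.538). Ccr7, which guides resting T cells into lymph nodes, was too low to test and had 1 to 3 reads in the knockout libraries other than Knockout 1, which had 37, and 2 to 141 in wild-type libraries. Foxp3, the regulator of regulatory T cells, had 0 to 3 reads in knockout and 0 to 16 in wild-type libraries.

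Of 10 genes of the interleukin 7 axis 7 were tested and 0 called, and their median log2 fold change was -0.16. Il2rg, the chain that pairs with Il7r, averaged 2.02 ± 1.13 CPM in knockouts (SD, n = 6) against 5.82 ± 4.41 CPM in wild types (SD, n = 5), differing by -1.50 ± 0.53 (log2, SE, adjusted p of 0.319 in edgeR). Without Wild-Type 5 the difference was -1.10 and without Knockout 1 it was -1.86 (log2). Its value is uncertain, since 63.3% of its coding words also occur in the overlapping gene Gm20489. Jak1, the kinase bound to Il7r and common to many receptors, was at 158 ± 21.8 and 157 ± 29.1 CPM (log2 fold change 0.01 ± 0.13, adjusted p = 0.979). The cytokines Il7 and Tslp had 0 to 4 reads per library.

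B cell genes moved with the members over the libraries, and their part in the differences between genotypes was not tested. The 12 B cell genes summed to 2.42, 78.4, 5.75, 24.8 and 109.5 CPM in wild-type libraries 1 to 5 and to 20.1, 2.52, 2.15, 3.40, 1.14 and 2.67 CPM in knockout libraries 1 to 6. The highest 4 libraries were Knockout 1 and Wild-Type 2, 4 and 5 in 12 of the 12 genes, as they were in 8 of the 9 T cell genes. Of the B cell genes 5 were tested and 0 called, all 5 with a lower mean in knockout and a median log2 fold change of -2.92. All 5 had an unadjusted p under 0.05 in edgeR, where 6.08% of all genes tested were lower at that level. Cd37 was at -2.62 ± 0.87 and Cd79a, the most abundant, at -2.26 ± 0.84 (SE, edgeR adjusted p = 0.313 and 0.341), and 27.1% of the coding words of Cd79a also occur in another gene. Without Wild-Type 5 the differences of Cd37 and Cd79a were -2.02 and -1.59 (log2), and without Knockout 1 they were -3.33 and -2.82. In Knockout 2 to 6, 3 to 5 of the 12 B cell genes had 0 reads, as had 5 in Wild-Type 1, while at most 1 of the 9 T cell genes did. Pax5, the factor that defines B cells, had 23 reads in Knockout 1, 0 in each of the other 5 knockout libraries and 0 to 117 in wild-type libraries.

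The ratio of T cell to B cell reads differed between libraries. The 9 genes had 0.284 reads per read of the B cell genes in Wild-Type 2, 0.335 in Wild-Type 5, 0.468 in Wild-Type 4, 0.486 in Wild-Type 3 and 0.543 in Knockout 1, and 1.09 in Wild-Type 1. In Knockout 2 to 6 the ratios were 0.973, 2.20, 1.27, 3.55 and 1.08. The summed T cell level spanned 14.9-fold between the highest and the lowest library, and the summed B cell level 96.2-fold.

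**Figure D4:**
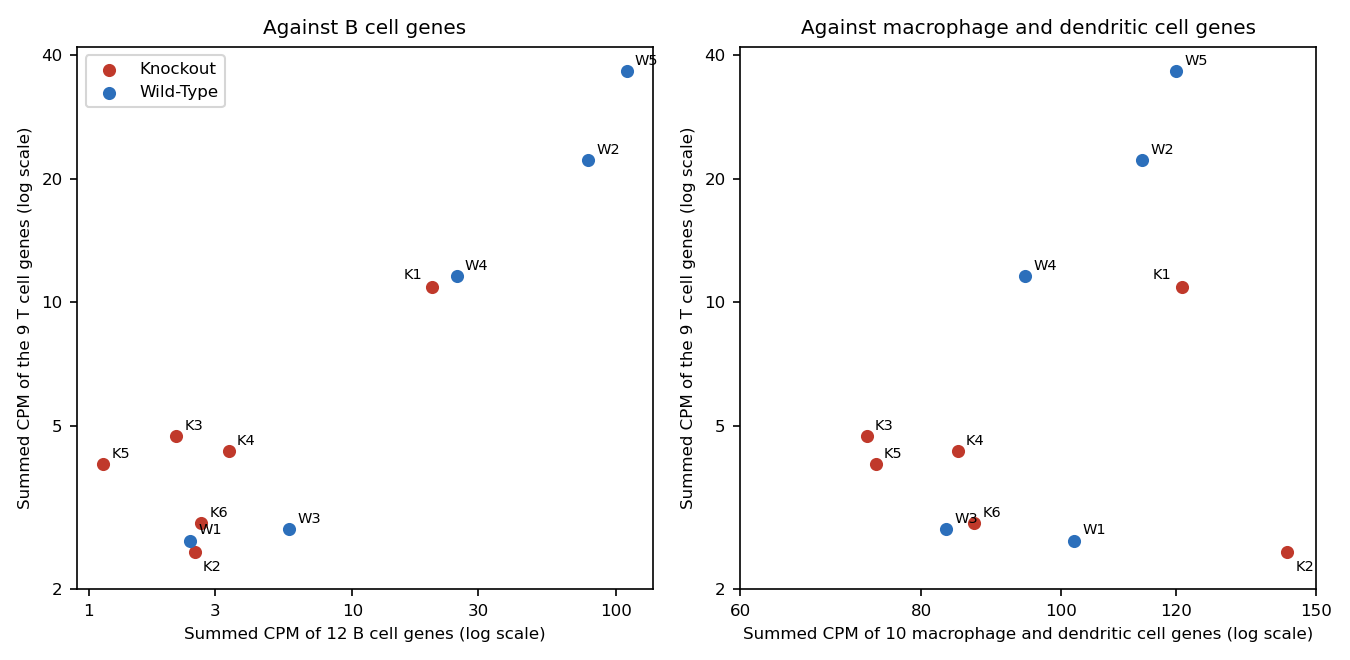
Summed CPM of the 9 T cell genes (vertical axis, log scale) against that of 12 B cell genes (left) and of 10 macrophage and dendritic cell genes (right) in each library, K for knockout and W for wild-type. In the left panel Knockout 1 and Wild-Type 2, 4 and 5 lie above 10 CPM of T cell and 20 CPM of B cell genes, and the other 7 libraries lie below 5 and 6 CPM. In the right panel the horizontal axis spans 73.4 to 143 CPM and Knockout 2, the lowest in T cell genes, is the highest.

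Of the 6 measured markers of lymph node stroma, 3 (Ccl21a, Cxcl13 and Chst4) had Knockout 1 and Wild-Type 2, 4 and 5 as their 4 highest libraries. Ccl21a, a chemokine that draws T cells into lymph nodes, averaged 0.609 ± 1.02 CPM in knockouts (SD, n = 6) against 8.35 ± 9.71 CPM in wild types (SD, n = 5), differing by -3.66 ± 1.29 (log2, SE, adjusted p of 0.332 in edgeR), with 83.2% of its coding words shared with near copies. Knockout 1 alone had 2.67 CPM, and the other 5 knockouts averaged 0.198 ± 0.142 CPM (SD), so that the log2 difference was -5.35 without Knockout 1 and -2.88 without Wild-Type 5. The other 2 tested genes of that list were Madcam1, an adhesion molecule of vessels, at -0.08 ± 0.27, and Prox1, a factor of lymphatic vessels, at 0.46 ± 0.26 (log2, SE), and the median of the 3 was -0.08. That median leaves out Cxcl13, a chemokine for B cells, and Chst4, an enzyme of lymph node vessels, which did not reach the edgeR filter and had 0 to 1 and 0 reads in the knockout libraries other than Knockout 1. In DESeq2 they differed by -3.88 ± 1.74 and -4.07 ± 1.46 (log2, SE), Cxcl13 at an adjusted p of 0.289 and Chst4 with none given. Summed over the 6 measured genes, levels were 3.50 to 31.2 CPM in wild-type and 4.59 to 10.9 CPM in knockout libraries, with Knockout 1 the highest of these. Macrophage and dendritic cell genes summed to 83.2 to 120 CPM in wild-type and 73.4 to 143 CPM in knockout libraries, and only 1 of the 10 had the same 4 highest libraries as the T cell genes. Lyz2, a lysozyme gene, was the member of that list with the smallest p, at -0.95 ± 0.39 (log2, SE, edgeR adjusted p = 0.369), with 38.4% of its coding words shared with Lyz1, and Cd14 the most abundant, at 0.38 ± 0.26 (adjusted p = 0.569). The mean profile of the members over 11 libraries correlated at 0.932 with that of the B cell genes, at 0.955 with the mean of the 3 tested lymph node stroma genes (0.959 for Ccl21a, 0.262 for Madcam1 and -0.04 for Prox1 alone), at 0.507 with macrophage and dendritic cell genes, at -0.463 with milk epithelium and at 0.146 with adipocyte genes, given as descriptions over shared libraries.

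Outside all lists, 8 genes were named as most like the members by the Pearson correlation of their log2 CPM with the mean profile of the 7 tested members over the 11 libraries. They were Rgs14 (0.986), Ptprcap (0.985), Gimap3 (0.984), Nxpe3 (0.984), Acap1 (0.978), Gimap1 (0.977), Tbc1d10c (0.973) and Akna (0.965). Since they were chosen for following that profile, which is itself lower in knockout, their lower means in knockout come with the choice. Akna had the smallest difference, at -0.93 (log2), and the 8 genes had edgeR adjusted p-values from 0.313 to 0.394, so that 0 of 8 were called. Acap1 was the most abundant of them in wild-type libraries, at 8.74 ± 7.71 CPM (SD, n = 5), against 2.69 ± 1.07 CPM (SD, n = 6) in knockout libraries. Of their coding words of 31 bases, 38.4% in Gimap3 and 84.5% in Tbc1d10c also occur in other genes, so that these 2 are uncertain.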

How the data were processed

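RNA of whole inguinal mammary glands was sequenced in 11 libraries from strand-specific kits, per the labels' protocols. Salmon 1.3.0, DESeq2 1.28.1 and the build GRCm38.p6 are named in the submitters' processing notes. Per the file headers, the deposited tables give, for 58204 transcripts, the length, effective length, TPM and estimated count made by the authors. Of the transcripts with a coding sequence in GENCODE M21, 94.3% were listed at most 3 bases above its length, so that most entries lack untranslated regions. The authors also deposited a gene table of normalized values, used here as a signal on their scale for group ratios only.

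Estimated counts were summed per gene with GENCODE M21 (GRCm38), which held 57452 transcripts. The other 752 carried 0.195% to 0.265% of the reads and were left out. Sums were rounded. Groups came from the titles. Genes were filtered with filterByExpr and tested with edgeR 4.0.16 (R 4.3.3, TMM scaling, quasi-likelihood, robust, genotype only, adjusted p under 0.05). Alternatives were DESeq2 1.42.0, limma-voom (limma 3.58.1), other scalings and filters, transcript length offsets, no robust estimation, a replicate block and each library left out. The scripts were tested on simulated data. Log2 CPM for correlations used a prior count of 2.

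The members and lists were chosen with earlier results of these data known. Named were all members, Tsc1, the smallest p and highest CPM of each list (the 4 highest in both main T cell lists) and the 8 genes most like the members. Others were named after their values were seen, and some genes that the rule names are not reported here. Reads are not independent molecules, so that intervals and limits cover counting error only. Lck, Zap70, Cd3e and Cd247 overlap annotated genes, and whether counting used the strand is not given in the sources used here.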

Additional observations from a re-analysis of the deposited data

Results flagged for a closer look

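In 44 sets of values (each member, each list sum and 2 ratios, per genotype) single libraries far from the rest of their group were looked for, and 8 were found. About 1 in 20, or 2.2, would be found by chance in independent sets of normally distributed values. Whether the values are so distributed was not tested, and the sets share genes, so that 2.2 is only a rough guide. Of the 8, 7 were in Knockout 1. It had 0.866 CPM of Cd3d against 0.136 to 0.297 CPM in the other knockout libraries, 1.29 CPM of Cd4 against 0.307 to 0.551 CPM, and 3.22 CPM of Lck against 0.546 to 1.35 CPM. The sum over the 9 T cell genes was 10.9 CPM there against 2.46 to 4.72 CPM, that over the receptor chains and signalling genes 171 CPM against 135 to 145 CPM, that over B cell genes 20.1 CPM against 1.14 to 3.40 CPM, and that over lymph node stroma genes 10.9 CPM against 4.59 to 6.61 CPM. The sets share genes and the library, so that these 7 are not independent of each other.

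The remaining library was Wild-Type 1, with 1.09 T cell reads per B cell read against 0.284 to 0.486 in the other wild-type libraries, on 75 T cell and 69 B cell reads.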

How the results depend on the processing

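Over 138 fits of a member under the alternatives, all 138 had a lower mean in knockout and 0 passed the adjusted threshold, the smallest adjusted p being 0.169 (Cd3d in DESeq2). In every alternative 0 members and 0 of the lymphoid companion genes were called. The count of genes called was 7, and it was 146 in DESeq2 and 0 to 28 with single libraries left out, 0 without Knockout 3 or Knockout 6 and 28 without Knockout 2. The other T cell genes called were 0, and 2 in DESeq2. The replicate block, on the 10 libraries that share a number, called 0 genes, and the same 10 libraries without a block, which is the fit without Knockout 6 and was set beside it after seeing the data, also called 0. The members' median log2 fold change was -0.97 with the block and -1.26 without it, against -1.41 over all 11 libraries. The numbers did not pair the samples, since deviations of libraries with the same number correlated at -0.223 to 0.187 and 0 of 5 wild-type libraries correlated best with its own number. The stricter filter left 1 member, Lck, so that it says nothing of the others. Scaling moved the median of all genes by under 0.02 (log2). With 0 to 133 reads per library in 8 of the 9 members, depth limits single values, and a difference that the spread hides was not detectable here.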

Other observations

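Genes of natural killer and cytotoxic cells were low in all libraries. Of 11 genes 5 were tested and 0 called, 2 with a higher and 3 with a lower mean in knockout, at a median log2 fold change of -0.15. Gzma, a granzyme, was the most abundant, averaging 3.35 ± 0.811 CPM in knockouts (SD, n = 6) against 2.67 ± 0.565 CPM in wild types (SD, n = 5), a log2 ratio of 0.33 ± 0.20 (SE, adjusted p of 0.511 in edgeR). The sum over the 11 genes ran from 5.65 to 10.4 CPM over the knockouts and from 4.43 to 11.3 CPM over the wild types. Only 1 of the 11 had Knockout 1 and Wild-Type 2, 4 and 5 as its 4 highest libraries. The mean profile of the 5 tested genes still correlated at 0.763 with that of the T cell genes over the 11 libraries. Within the knockout libraries this correlation was 0.523, and within the wild-type libraries 0.932. Granzymes are made by cytotoxic T cells as well as by natural killer cells.

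Plasma cell genes shared the order of libraries in part. Jchain, Mzb1, Tnfrsf17 and Irf4 had Wild-Type 5, Wild-Type 2 and Knockout 1 as their 3 highest libraries, though 0 of the 7 genes of the list had all of Knockout 1 and Wild-Type 2, 4 and 5 as the highest 4. The mean profile of the list correlated at 0.647 with that of the T cell genes over the 11 libraries. Jchain, which joins secreted antibody, averaged 133.5 ± 67.8 CPM in knockouts (SD, n = 6) against 173 ± 105.1 CPM in wild types (SD, n = 5), a log2 ratio of -0.38 ± 0.53 (SE, adjusted p of 0.808 in edgeR). Derl3 had the smallest p of that list, at -0.60 ± 0.22 (adjusted p = 0.340).

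In the lists for the tissue itself, Fabp4, a fatty acid carrier of adipocytes, was at 0.35 ± 0.10 (log2, SE, edgeR adjusted p = 0.255) and Krt8, a luminal keratin, at 0.48 ± 0.21 (adjusted p = 0.395), with 43.3% of the coding words of Krt8 shared with other genes. Of the 8 adipocyte genes 7 had a higher and 1 a lower mean in knockout, at a median of 0.28, and of the 8 milk epithelium genes 3 a higher and 5 a lower one, at a median of -0.19, with Csn1s1 at -0.24 ± 0.12 and Wap at -0.32 ± 0.15. In edgeR 0 of these 16 genes passed the adjusted threshold, and 5 had an unadjusted p under 0.05, all higher in knockout, as were 6.31% of all genes tested.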
